A study of Mus musculus with 18 samples.

Results

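The 6 enhancer-capture libraries of definitive endoderm (DE) and embryonic stem cells (ESC), of 18 captured libraries in all, were compared over the whole chromosome of each of 6 viewpoints. All columns labelled as the enhancer capture of these cell types were taken, with 3 replicates of each cell type for VPE, PSE_a, PSE_b, Hba, Hbb and Slc25a37. The study asked whether the regulatory elements of Eomes already lie in contact with their gene before it is switched on, and used NG Capture-C, which counts how often a chosen restriction fragment, the viewpoint, was ligated to other DpnII fragments of crosslinked nuclei. The remaining libraries were captured for promoters or came from erythrocytes. The ESC were collected on day 0 and kept with LIF. The DE cells came from the same labelled 129/Sv//EV strain and were collected on day 5, after growth as embryoid bodies without LIF and, from day 2, in N2B27 medium with ActivinA and EGF. Both are cultured populations for which the labels state no sorting, and no expression was measured in these files, so the cell type labels were not checked against markers. All 6 viewpoints were read in the same 6 libraries, so their values are not independent of each other.

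Eomes encodes a T-box transcription factor that is silent in pluripotent cells and is needed in the primitive streak to form definitive endoderm and cardiac mesoderm. An enhancer can act on a promoter when the chromatin between them folds, and the number of ligations normally falls steeply with distance from the viewpoint. In ESC the promoters of many silent developmental regulators carry Polycomb complexes, and such promoters can meet over long distances. Neither Polycomb binding nor histone marks were analysed here.

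The viewpoints differed in what they contained. Each appears in the data as a zone of fragments without values, which was used to place it in NCBIM37 (mm9). VPE lay downstream of the Eomes start (chr9:118394813-118397837, centre 8.99 kb away), whereas PSE_a (chr9:118376738-118378092, 9.91 kb) and PSE_b (chr9:118380281-118382070, 6.16 kb) lay upstream of it. The zones of the other viewpoints in the enhancer capture covered gene starts. They were placed where the promoter capture lacked values as well. The Hba zones (chr11:32182317-32184781 and chr11:32194990-32197598) lay on Hba-a1 and Hba-a2, which encode alpha-globin, and the Hbb zones (chr7:110961283-110963273 and chr7:110975292-110977138) on Hbb-b2 and Hbb-b1, which encode adult beta-globin. The Slc25a37 zone (chr14:69902161-69904393) covered the start of the gene for mitoferrin-1, the iron importer of erythroid mitochondria. Hba, Hbb and Slc25a37 are therefore described as promoter viewpoints of erythroid genes, and contact between an enhancer and its own gene could be measured only for the Eomes viewpoints.

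Promoter sequences are shown for Eomes, the target of VPE and PSE, for the globin genes, which are themselves viewpoints, and for Foxl2, the gene start with the largest called fall in contact with VPE. They are the 100 bases before the RefSeq start, placed in NCBIM37 by exact match. Capitals mark CCAAT and ATATAA in the first 4 and CG dinucleotides in Foxl2. The Eomes sequence lies at chr9:118387207-118387306 on the plus strand. The Hba-a1 sequence lies at chr11:32183572-32183671 on the plus strand and again, without a difference, at chr11:32196389-32196488. Those of Hbb-bs, in the Hbb-b1 zone, and Hbb-bt, in the Hbb-b2 zone, lie on the minus strand at chr7:110976443-110976542 and chr7:110962438-110962537. That of Foxl2 lies at chr9:98855926-98856025 on the plus strand.
Eomes: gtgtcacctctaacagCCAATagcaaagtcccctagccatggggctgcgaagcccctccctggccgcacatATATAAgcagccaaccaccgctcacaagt
Hba-a1: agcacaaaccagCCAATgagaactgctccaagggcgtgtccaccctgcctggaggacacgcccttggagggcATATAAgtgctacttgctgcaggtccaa
Hbb-bs: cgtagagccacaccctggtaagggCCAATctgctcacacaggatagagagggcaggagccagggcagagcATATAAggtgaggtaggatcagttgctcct
Hbb-bt: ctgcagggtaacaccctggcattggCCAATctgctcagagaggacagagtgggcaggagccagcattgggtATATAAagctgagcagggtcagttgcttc
Foxl2: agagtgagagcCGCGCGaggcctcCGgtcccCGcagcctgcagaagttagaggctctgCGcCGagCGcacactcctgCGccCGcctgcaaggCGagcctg
Of 32851 RefSeq mouse promoters of this length, 18.9% held CCAAT and 3.74% held ATATAA on either strand, and the Eomes and globin promoters shown here hold both. The Foxl2 promoter held 11 CG dinucleotides against a median of 3 over all promoters, and 15.1% of promoters held as many. The Eomes promoter held 3, Hba-a1 held 2, Hbb-bs held 1 and Hbb-bt held 0.

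Depth differed between the cell types at every viewpoint. VPE had between 10127 and 21091 interactions per ESC library and between 36973 and 72117 per DE library, Hba between 31470 and 62021 and between 89886 and 172611, and Hbb only between 521 and 973 and between 2611 and 5092. The ratio of DE to ESC reads on the viewpoint's own chromosome (in cis) was between 1.89 at PSE_a and 4.49 at Hbb, and the part of depth in the differences below was not tested except where values from reads thinned to equal totals are given. Levels are interactions per 100000 in cis, which removes the total but not the larger counting error of the shallower ESC libraries. The share of interactions in cis was lower in every DE library at VPE (54.8% to 57.9%, against 62.1% to 69.2% in ESC), PSE_a (44.4% to 48.5% against 53.0% to 55.9%) and Hbb, where the differences of the means were -9.39, -8.0 and -7.04 points. At PSE_b, Hba and Slc25a37 it differed by -5.16, -4.33 and -1.86 points, and libraries overlapped. With 3 libraries against 3 an exact permutation test allows no p under 0.1, and that is the value given for each difference without overlap.

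Contacts were spread over longer distances in DE than in ESC from every viewpoint. At VPE, 15.6% (95% Wilson interval 15.2% to 16.0%), 14.8% (14.5% to 15.2%) and 14.7% (14.3% to 15.2%) of cis interactions lay within 20 kb in the 3 DE libraries. In ESC the values were 27.7% (26.9% to 28.4%), 25.0% (24.3% to 25.7%) and 25.1% (24.1% to 26.2%). The groups did not overlap, the mean difference was -10.9 points, and the intervals cover counting error only. PSE_a had 20.4% ± 1.40 (SD, n = 3) within 20 kb in DE and 22.8% ± 0.949 in ESC, and PSE_b 18.5% ± 0.969 and 22.4% ± 1.08. The log2 difference within 20 kb at VPE minus the mean of those at PSE_a and PSE_b was -0.57, without overlap of libraries (exact two-sided permutation test, p = 0.1).

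Beyond 2 Mb the share was higher in DE at all 6 viewpoints. Between 2 and 10 Mb VPE had 12.8% in DE and 8.78% in ESC, PSE_a 11.1% and 8.65%, PSE_b 11.4% and 8.42%, Hba 9.03% and 5.91%, and Slc25a37 15.9% and 12.8%, without overlap. Hbb had 9.66% and 8.93% with overlap of libraries (exact permutation test, p = 0.4). Beyond 10 Mb the difference was between 2.93 points at PSE_b and 4.95 points at Slc25a37, without overlap at any viewpoint. The direction was thus the same at the Eomes enhancers and at the erythroid genes, except for the middle distances described next. Over the 36 differences of viewpoint and distance class, the lowest adjusted p of the exact permutation tests was 0.1125.

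**Figure D1:**
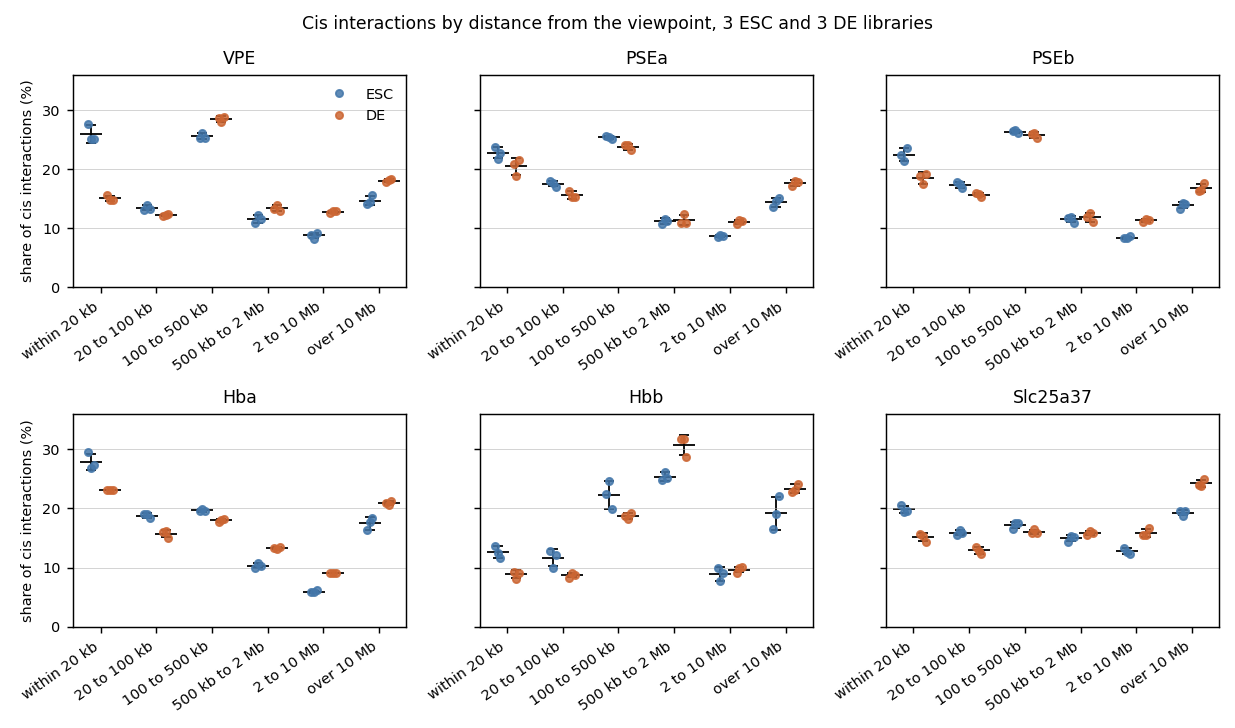
Share of cis interactions (%, y axis) in 6 classes of distance from the viewpoint (x axis) for each of 6 viewpoints, in DE and ESC. Bars are means ± SD (n = 3 libraries) and points are libraries. The share within 20 kb is lower in DE at all viewpoints, most at VPE (15.1% against 25.9%), and the share beyond 10 Mb is higher.

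Between 100 and 500 kb the viewpoints went in opposite directions. VPE had 28.5% ± 0.473 of its cis interactions there in DE and 25.6% ± 0.481 in ESC, a difference of 2.88 points. The difference was -1.57 points at PSE_a, -1.72 at Hba, -3.58 at Hbb and -1.19 at Slc25a37, each without overlap, and -0.594 points at PSE_b with overlap (exact permutation test, p = 0.2). The sign at VPE depended on the total: as a share of interactions beyond 20 kb it was 33.5% in DE and 34.5% in ESC, with overlap (exact permutation test, p = 0.3). On the log2 scale, DE minus ESC at VPE exceeded the mean of PSE_a and PSE_b in this class with either total. The excess was 0.22 with all cis interactions and 0.08 beyond 20 kb (exact permutation test, p = 0.1 for each). With all cis interactions, the log2 share at VPE minus that mean was -0.04, 0.01 and -0.02 in ESC. In DE it was 0.20, 0.15 and 0.25.

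One number for the shift is the log2 ratio of contacts 20 to 500 kb away over those more than 2 Mb away. At VPE it was 0.42, 0.37 and 0.40 in DE and 0.75, 0.82 and 0.64 in ESC. At PSE_a it was 0.54, 0.42 and 0.41 against 0.98, 0.88 and 0.83, and at PSE_b 0.61, 0.58 and 0.48 against 1.03, 0.96 and 0.92. No DE library reached any ESC library at these enhancers, and the mean differences were -0.34, -0.44 and -0.41.

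The difference was larger in size at the erythroid genes. At Hba the ratio was 0.17, 0.21 and 0.13 in DE and 0.80, 0.73 and 0.63 in ESC, a difference of -0.55. At Hbb it was -0.24, -0.27 and -0.29 against 0.40, 0.38 and 0.04, and at Slc25a37 -0.43, -0.42 and -0.56 against -0.03, 0.11 and 0.06. The differences were -0.54 and -0.52, again without overlap. The mean of the Eomes viewpoints minus that of the erythroid ones was 0.66 ± 0.036 in DE and 0.52 ± 0.037 in ESC, so the gap was 0.14 wider in DE, without overlap (exact permutation test, p = 0.1), and also 0.14 wider without Hbb. Without Hbb and with contacts 50 to 500 kb away in the ratio, it was 0.12 wider with overlap of libraries (exact permutation test, p = 0.2). Of the 15 pairs of viewpoints, 5 differed in their shift without overlap. VPE shifted less than Hba, Hbb and Slc25a37 by 0.21, 0.20 and 0.18, and PSE_a and PSE_b less than Hba by 0.11 and 0.14 (exact permutation test, p = 0.1 for each before adjustment). Libraries overlapped in the other 10 pairs.

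For Hba, Hbb and Slc25a37 the zones were placed where the enhancer and promoter captures both lacked values, so a shared zone was fixed in advance. The promoter capture, whose libraries carry the same names in the labels, was measured from these zones. Its differences between DE and ESC were -0.56, -0.63 and -0.50, and the captures differed from each other by 0.0087, 0.0915 and -0.0186 with overlap of libraries (exact permutation tests, p = 0.8, 0.3 and 0.8).

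**Figure D2:**
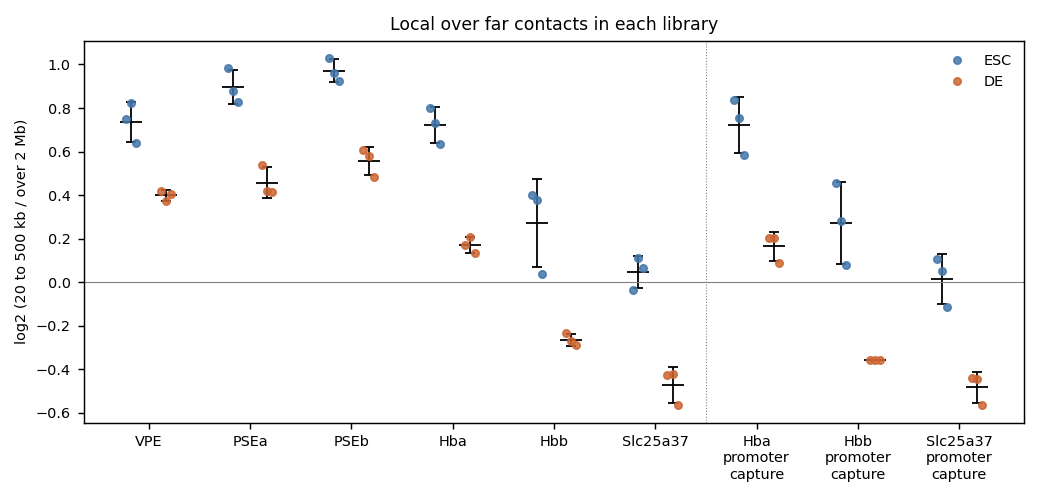
Log2 ratio of cis interactions 20 to 500 kb away over those more than 2 Mb away (y axis) at each viewpoint (x axis) in DE and ESC, for the enhancer capture and for Hba, Hbb and Slc25a37 in the promoter capture. Points are libraries and bars mean ± SD (n = 3). All DE libraries lie below all ESC libraries at each viewpoint, with mean differences between -0.34 at VPE and -0.63 at Hbb in the promoter capture.

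The contacts of the Eomes enhancers were also more one-sided in DE. Of VPE contacts 20 to 500 kb away, 76.4%, 75.6% and 75.9% lay on the side of lower coordinates in DE, which is upstream of Eomes, and 66.3%, 66.5% and 68.3% in ESC. All DE libraries were above all ESC libraries, by 8.93 points. The share was also higher in DE at PSE_a (77.5% against 73.2%) and PSE_b (78.4% against 73.2%), without overlap, and VPE exceeded their mean difference by 4.18 points without overlap (exact permutation test, p = 0.1). Hba and Slc25a37 also had a higher share on that side in DE, by 4.13 and 3.54 points, without overlap. At Hbb it was 50.9% in DE and 48.1% in ESC with overlap (exact permutation test, p = 0.2).

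The start of Eomes was in contact with VPE less often in DE than in ESC. A window of 5 kb to each side of it held 5059, 4788 and 4893 interactions per 100000 in DE and 10342, 9215 and 9636 in ESC. Every DE library had about the same level, and all lay far below ESC. The means were 4913 ± 137 and 9731 ± 569 (SD, n = 3), a log2 fold change of -0.98 (SE 0.05, limma adjusted p = 3.1e-12), which kept its side of the threshold in 17 of 17 alternatives, between -1.18 and -0.66. VPE lies close to this window, and the fall is part of the lower share within 20 kb.

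From the other side of the gene the differences at the same window were smaller. From PSE_a it held 5122, 4470 and 4813 interactions in DE and 5615, 5265 and 4777 in ESC, a log2 fold change of -0.12 with overlap (limma adjusted p = 0.41), and DESeq2 on the recovered reads gave 0.05. From PSE_b it held 6682, 6108 and 6826 in DE and 7722, 7654 and 8380 in ESC, and no library overlapped. This was a fall of 0.28 on the log2 scale (limma adjusted p = 0.042), past the threshold in 7 of 17 alternatives. It was lost without DE replicate 1, 2 or 3 or ESC replicate 1 or 3, between -0.31 and -0.23.

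Among the neighbours of Eomes, Azi2 and Cmc1 upstream rose in VPE contact and Golga4 and Itga9 downstream fell. Of 7 listed neighbours tested, 2 rose and 2 fell, and their median log2 fold change was 0.64, against 0.20 over all 208 gene starts tested on the chromosome, of which 2 rose and 6 fell (3.85% called). Starts entered with at least 10 reads over DE and ESC together, and DE was read more deeply. The part of this in the medians over all starts, here and below, was not tested. Azi2, which encodes an adaptor of the kinase TBK1, had 899, 901 and 928 interactions per 100000 in DE and 643, 563 and 541 in ESC. Cmc1, which encodes a mitochondrial protein of cytochrome oxidase assembly, had 918, 831 and 953 in DE and 607, 670 and 429 in ESC. Both rose without overlap, by 0.64 (limma adjusted p = 0.0057) and 0.68 (limma adjusted p = 0.016) on the log2 scale, in 9 and 10 of 17 alternatives, and both lost the call without DE replicate 1, 2 or 3 (limma adjusted p between 0.050 and 0.15). With the total beyond 20 kb neither passed (limma adjusted p = 0.11 for Azi2 and 0.12 for Cmc1).

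Zcwpw2, beside Azi2, had 166, 158 and 128 interactions in DE and 72.2, 49.9 and 79.5 in ESC, without overlap, but missed the threshold (log2 fold change 1.07, limma adjusted p = 0.056). Rbms3, farther upstream, and Ctdspl, downstream, had values of 1.27 and -0.73 with overlap (limma adjusted p = 0.18 for each). On the downstream side, Golga4, for a golgin of the Golgi apparatus, had 1908, 1820 and 1881 interactions in DE and 2260, 2411 and 2226 in ESC. Itga9, for integrin alpha 9, had 318, 244 and 242 in DE and 441, 414 and 525 in ESC. Both fell without overlap, by 0.30 (limma adjusted p = 0.030) and 0.76 (limma adjusted p = 0.028) on the log2 scale, in 7 and 6 of 17 alternatives, and DESeq2 gave 0.02 for Golga4. Both calls were lost without any one DE replicate, that of Golga4 also without ESC replicate 2 and that of Itga9 without ESC replicate 3 (limma adjusted p between 0.059 and 0.20).

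Neither of the PSE viewpoints, which were read less deeply than VPE, called any of these 7 neighbours. Cmc1 had values of 0.61 at PSE_a and 0.94 at PSE_b (limma adjusted p = 0.15 and 0.14), and Azi2 0.67 and 0.16 (limma adjusted p = 0.25 and 0.81). Of 44 gene starts tested at PSE_a none passed (0.0%), with 9 at an unadjusted p under 0.05 and 0 by edgeR and by DESeq2. Of 57 at PSE_b, Eomes alone passed (1.75%). With 1 library left out, the VPE count of 8 went down to 2 without DE replicate 1 and 3 without DE replicate 2, the PSE_a count went to 1 without DE replicate 3, and the PSE_b count to 4 without ESC replicate 2 and to 0 without each of the others.

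**Figure D3:**
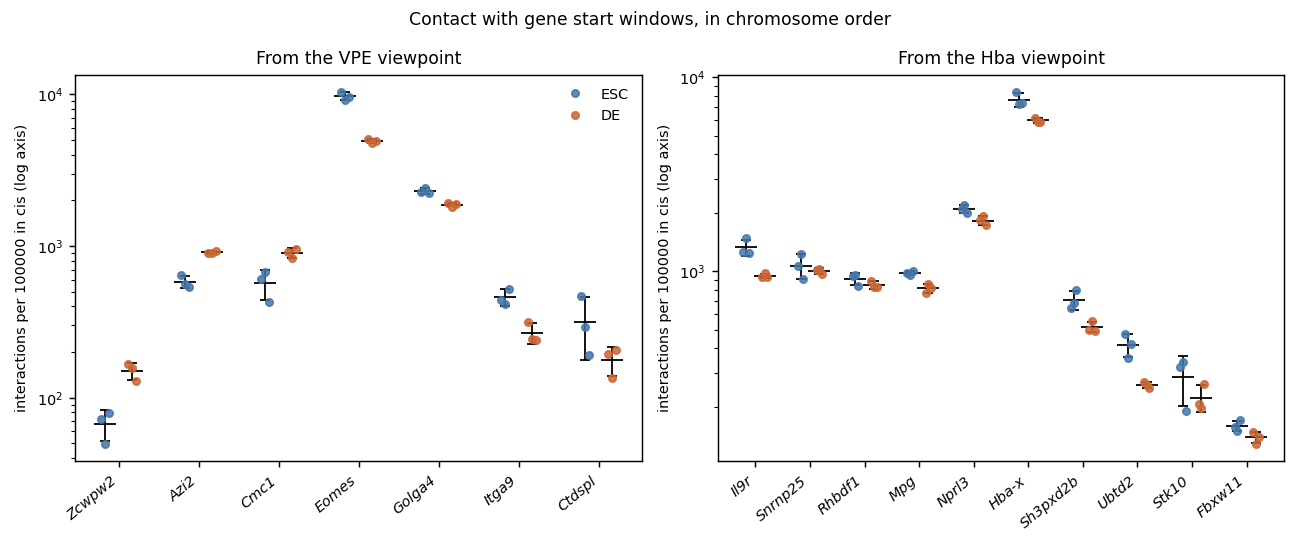
Interactions per 100000 in cis (y axes, log scale) within 5 kb of named gene starts in chromosome order (x axes) in DE and ESC, from VPE in the left panel and from Hba in the right one. Points are libraries and bars mean ± SD (n = 3). From VPE, Eomes, Golga4 and Itga9 lie lower in all DE libraries and Zcwpw2, Azi2 and Cmc1 higher, without overlap, though Golga4 was 0.02 on the log2 scale with DESeq2. From Hba, Hba-x lies lower in all DE libraries, but was 0.02 with TMM and 0.0048 with edgeR.

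The same division was seen in bins across the domain. Of 1279 bins of 5 kb tested at VPE, 20 rose and 13 fell (2.58% called), and of 384 bins of 100 kb, 36 rose and 15 fell (13.3% called). Within 2 Mb but beyond 20 kb, 19 of the 374 upstream 5 kb bins rose and 0 fell, whereas 0 of the 335 downstream bins rose and 6 fell. Of 20 bins of 100 kb on each side, 15 rose and 1 fell upstream and 0 rose and 8 fell downstream. Distance and side were taken from the centre of a bin. The upstream bin of 100 kb that fell, that of Eomes, thus holds the VPE zone itself. The split of all 100 kb calls into rises and falls depended on the scaling. It was 20 and 17 with the total beyond 20 kb and 6 and 17 with TMM, for the 5 kb bins 3 and 21 and 5 and 7, and for the gene starts 0 and 6 and 3 and 3. TMM moved the median of all 100 kb bins from 0.34 to 0.09 on the log2 scale.

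Among 100 kb bins near Eomes, chr9:116600001-116700000 rose by 1.68 on the log2 scale, where the mean was 433 in DE and 130 in ESC. The bin with the starts of Zcwpw2 and Azi2 rose from 2723 to 4211 (0.63), that of Cmc1 from 4116 to 5512 (0.43) and that of Tgfbr2, the type II receptor for TGF-beta, from 202 to 405 (0.96). Within 5 kb of the Tgfbr2 start the value was 0.23 with overlap of libraries (limma adjusted p = 0.87). Among the falls, the bin of Eomes, which holds the VPE zone, went from 28283 to 18609 (-0.60) and that of Itga9 from 2402 to 1745 (-0.46).

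At 5 kb one gain within the upstream domain was at chr9:118030001-118035000, with 202, 216 and 257 interactions per 100000 in DE and 50.6, 121 and 79.5 in ESC. It rose by 1.39 (limma adjusted p = 0.0016), and a bin at chr9:117870001-117875000 rose by 1.59 (limma adjusted p = 0.010). Both were lost without any one DE replicate, and the second also without ESC replicate 2 or 3 (limma adjusted p between 0.058 and 0.19). From PSE_a a different bin, chr9:118095001-118100000, 279 kb upstream, was the sole one of 515 that passed (0.194%). It had 207, 264 and 212 interactions in DE and 530, 518 and 648 in ESC, and fell by 1.28 (limma adjusted p = 7.8e-05), in 14 of 16 alternatives. At PSE_b none of 630 bins of 5 kb passed (0.0%), with 72 at an unadjusted p under 0.05, 1 by edgeR and 0 by DESeq2.

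The VPE count of 33 bins of 5 kb was 3, 4 and 3 without DE replicates 1, 2 and 3, and 13 and 12 without ESC replicates 2 and 3. The 51 bins of 100 kb became 18, 19 and 27 without DE replicates 1, 2 and 3 and 77 without ESC replicate 3. Without ESC replicate 3, 5 bins of 5 kb passed at PSE_a and 5 at PSE_b. With reads thinned to equal totals, 2 bins of 5 kb and 22 of 100 kb passed at VPE, and of the latter 15 rose and 7 fell.

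**Figure D4:**
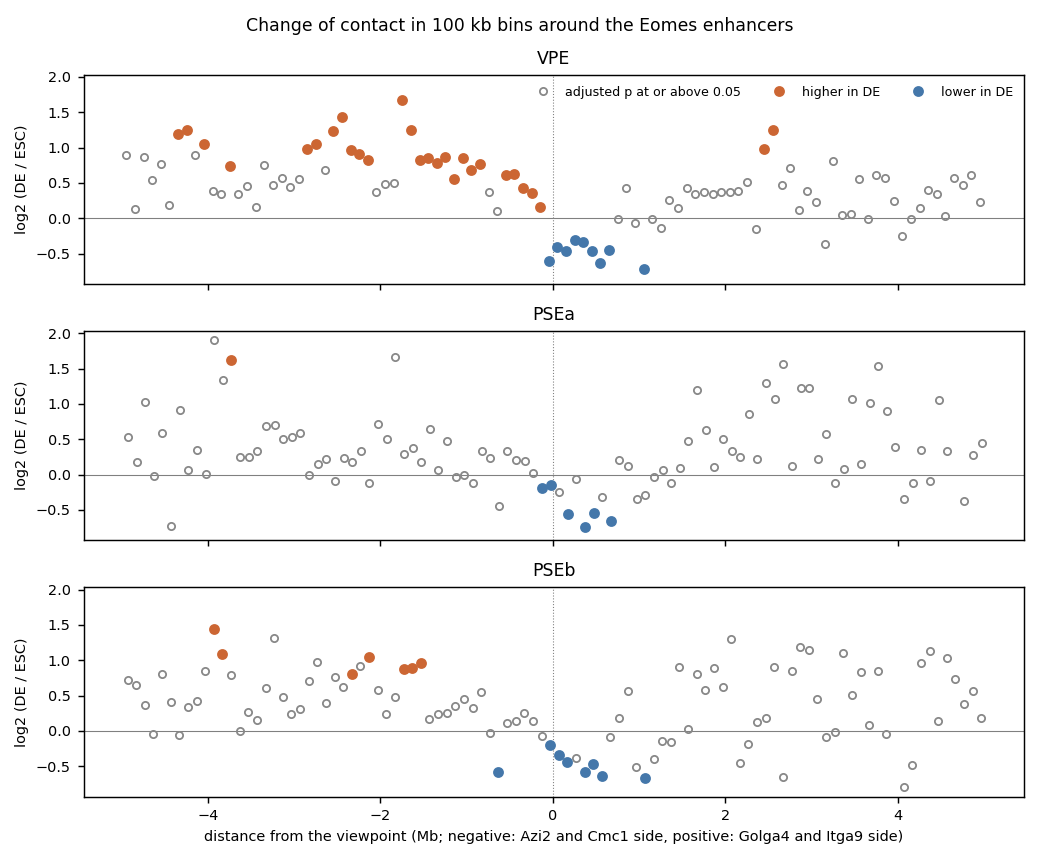
Log2 fold change between DE and ESC (y axis) of 100 kb bins against distance from the viewpoint (x axis, Mb, up to 5 Mb each way) for VPE, PSE_a and PSE_b. Each point is a bin, and bins past the limma threshold are marked. At VPE, 15 of 20 bins within 2 Mb upstream rose and 8 of 20 downstream fell.

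Fewer bins were called from PSE_a and PSE_b than from VPE, where depth was higher and 384 bins of 100 kb were tested. Cis reads in DE and ESC were 35391 and 18766 at PSE_a, 44354 and 19331 at PSE_b and 98158 and 34156 at VPE. The part of depth in this contrast was not tested. At PSE_a 1 bin of 100 kb rose and 7 fell of 129 tested (6.2% called), and at PSE_b 7 rose and 9 fell of 158 (10.1% called). With TMM the splits were 0 and 5 at PSE_a and 1 and 13 at PSE_b, and with the total beyond 20 kb 3 and 9 at PSE_b. The PSE_a count was 3 without DE replicate 3 or ESC replicate 1, 0 without ESC replicate 2 and 1 without ESC replicate 3, and the PSE_b count was 0 without DE replicate 1, 2 or 3 and 0 with the replicate number as a block. From all 3 viewpoints 5 bins fell, those of Eomes, Itga9, Ctdspl and Foxl2 and the bin at chr9:118700001-118800000. The Eomes bin holds the zones of all 3 viewpoints. Falls were shared by 2 viewpoints in 4 bins and rises in 6, among them the bins of Tgfbr2 and of Cmtm6 and Cmtm7, and 0 bins rose from all 3, where PSE_a had only 1 rise to share. With the block none of the PSE_b calls, and so none of those shared by all 3, was left. The Tgfbr2 bin rose from PSE_b by 0.80 (limma adjusted p = 0.049) and had a value of 0.18 with overlap from PSE_a. The window at the Tgfbr2 start had values of 0.30 from PSE_b and 0.26 from PSE_a, with overlap (limma adjusted p = 0.82 and 0.78). These viewpoints come from the same libraries, so a shared call is not independent of the others.

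The largest called fall from VPE was far outside the domain, at Foxl2, which encodes a forkhead transcription factor of the ovary and eyelid. The bin chr9:98800001-98900000, 19.54 Mb upstream, holds the starts of Foxl2, Faim and 7420426K07Rik. From VPE it had 69.1, 71.9 and 54.3 interactions per 100000 in DE and 419, 228 and 239 in ESC, on 66 and 105 reads. All DE libraries were under a level of 100 and all ESC libraries over 200. The means were 65.1 ± 9.44 and 295 ± 107 (SD, n = 3), and the bin fell by 1.98 on the log2 scale (SE 0.27, limma adjusted p = 3.5e-05), in 16 of 16 alternatives, thinned reads included.

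It fell from the other Eomes enhancers as well. From PSE_a the bin had 29.5, 38.8 and 33.5 interactions in DE and 116, 177 and 378 in ESC, on 12 and 36 reads, and fell by 2.26 (limma adjusted p = 0.016), in 13 of 16 alternatives. From PSE_b it had 68.2, 45.1 and 47.7 against 139, 220 and 161, on 24 and 34 reads, and fell by 1.52 (limma adjusted p = 0.018), in 9 of 16. No library overlapped at either. The PSE_a call was lost without ESC replicate 2 or 3 (limma adjusted p = 0.056 and 0.078), and the PSE_b call without DE replicate 1, 2 or 3 (0.15, 0.14 and 0.078) and with the replicate number as a block (limma adjusted p = 0.072). With thinned reads the PSE_a bin passed and the PSE_b bin did not (limma adjusted p = 0.047 and 0.41), nor did the latter without a minimum (0.058). Within 5 kb of the Foxl2 start, PSE_a and PSE_b had values of -1.86 and -1.02. DE libraries were below ESC there, but neither window was called (limma adjusted p = 0.080 and 0.45).

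Of the VPE reads in the bin, 38 of 105 in ESC and 12 of 66 in DE lay within 5 kb of the Foxl2 start, whose promoter is printed above. This window had 11.1, 14.4 and 9.88 interactions in DE and 137, 92.7 and 95.4 in ESC, and fell by 2.43 (SE 0.39, limma adjusted p = 0.00072), in 16 of 17 alternatives. With thinned reads the value was -2.23 and missed the threshold. Both 5 kb bins at the gene, chr9:98850001-98855000 and chr9:98855001-98860000, fell, by 2.16 and 1.93 (limma adjusted p = 0.010 and 0.018). These bins missed the threshold without any one DE replicate or ESC replicate 2, the first also without ESC replicate 1 and the second without ESC replicate 3 (limma adjusted p between 0.058 and 0.15).

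Other falls from VPE lay still farther away. Of 344 bins tested beyond 2 Mb, 21 rose and 6 fell. The 6 that fell, the Foxl2 bin among them, lay between 19.5 and 48.5 Mb away. All 6 held a gene start, while 9 of the 21 that rose and 102 of all 344 held none, and this difference was not tested. The bin of Tbx18, for a T-box factor of heart and ureter, 30.74 Mb away, had 47.0, 40.7 and 34.6 interactions in DE and 130, 164 and 111 in ESC. It fell without overlap by 1.51 (limma adjusted p = 0.0020), in 15 of 16 alternatives. The bin of Onecut1, for a homeobox factor of liver and pancreas, 43.64 Mb away, fell by 1.26 (limma adjusted p = 0.029), in 8 of 16. The bin of Bnip2, Gtf2a2 and Gcnt3, 48.54 Mb away, fell by 1.35 (limma adjusted p = 0.022). Among single gene starts, Rasgrf1, which encodes a Ras exchange factor, fell by 1.74 at 28.59 Mb (limma adjusted p = 0.047), in 4 of 17 alternatives. Its levels were 36.1, 35.7 and 31.8 in ESC and 2.77, 2.40 and 4.94 in DE. Each of these DE levels is 1 read, and in the ESC libraries 1 read stood for 7.22, 7.13 and 15.9. The calls of Onecut1, of the Bnip2 bin and of Rasgrf1 were lost without any one of the DE replicates or ESC replicates 1 and 2 (limma adjusted p between 0.068 and 0.19), whereas that of Tbx18 was kept without each library.

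The listed developmental regulators on chromosome 9 added no call to those of Eomes and Foxl2. Of 19 listed genes 18 were annotated, 13 had a read from VPE and 8 were tested, of which 0 rose and 2, Eomes and Foxl2, fell, where 3.85% of all gene starts tested were called. Their median log2 fold change was -1.01, against 0.20 over the 208 gene starts tested. Onecut1 and Tbx18 had values of -1.30 and -1.04 with all DE libraries below ESC (limma adjusted p = 0.19 and 0.21), and Sox14 of -1.14 with overlap. At PSE_a 3 of the list were tested and none passed, and at PSE_b 4 were tested and only Eomes fell.

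Summed over the listed genes more than 10 Mb away, VPE had 361, 271 and 159 interactions per 100000 in ESC and 55.3, 76.6 and 83.9 in DE, on 98 and 69 reads. All DE libraries were lower, while the 1058 gene start windows beyond 10 Mb together had means of 2676 in ESC and 2754 in DE. PSE_a had 272, 150 and 216 against 59.0, 77.6 and 44.7, without overlap, and PSE_b 216, 207 and 80.6 against 86.9, 56.4 and 66.7, with overlap. Without Foxl2 the means at VPE were 155 ± 82.6 in ESC and 60.2 ± 15.0 in DE with overlap, at PSE_a 168 ± 64.8 and 55.4 ± 13.0 without overlap, and at PSE_b 112 ± 55.7 and 49.7 ± 11.4 with overlap. These sums are descriptions, and windows of close genes in them share reads.

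The same sums were taken at the erythroid viewpoints. For regulators on chromosome 11 Hba had means of 29.3 in ESC and 25.8 in DE, on 29 and 67 reads, with overlap of libraries. Of these regulators 4 were tested with 0 called. Slc25a37 had 130, 66.8 and 58.5 in ESC and 43.6, 14.7 and 31.7 in DE for those on chromosome 14, on only 17 and 14 reads, without overlap, and 0 of 5 tested passed. Hbb had too few reads for any to be tested.

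**Figure D5:**
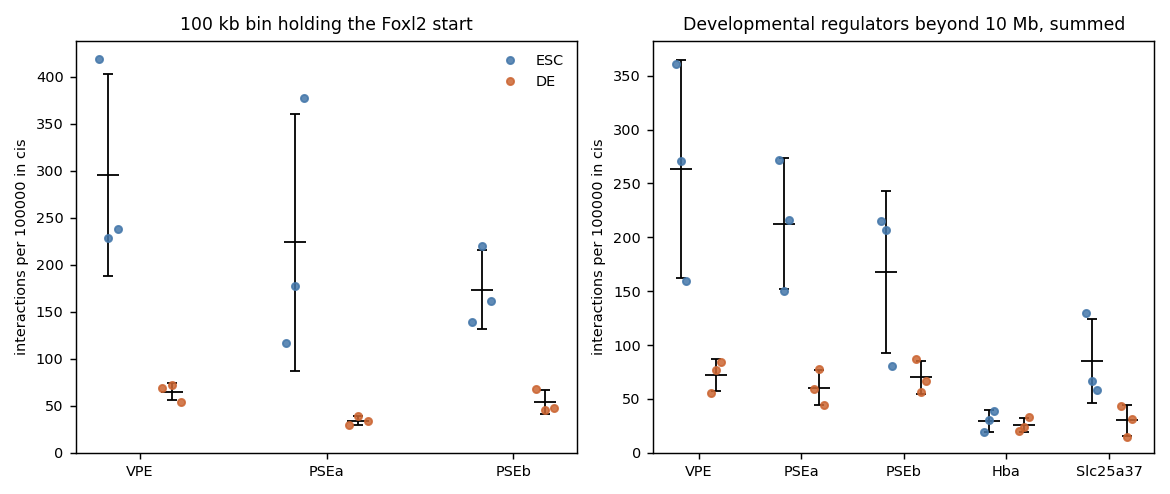
Interactions per 100000 in cis (y axes) in DE and ESC. The left panel shows the 100 kb bin of Foxl2 from VPE, PSE_a and PSE_b, and the right panel the sum over listed developmental regulators more than 10 Mb away from each viewpoint that read any of them in both cell types. Points are libraries and bars mean ± SD (n = 3). The Foxl2 bin is lower in all DE libraries (65.1 against 295 from VPE). The Hba sums are close to each other, and the Slc25a37 sums are lower in all DE libraries, on 14 reads in DE and 17 in ESC.

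From Hba, with the deepest coverage, contact with 2 neighbouring globin genes, Hba-x and Hbq1b, was lower in DE, except with TMM and edgeR. Hba-x, the embryonic zeta-globin gene, had 6178, 5864 and 5885 interactions per 100000 in DE and 8366, 7265 and 7352 in ESC. Hbq1b, a theta-globin gene, had 6030, 5999 and 5969 in DE and 7323, 6700 and 7206 in ESC. Both fell without overlap, by 0.36 (limma adjusted p = 1.6e-14) and 0.24 (limma adjusted p = 8.0e-06) on the log2 scale. Their direction turned where the total was set by TMM, at 0.02 and 0.14, and with edgeR, at 0.0048 and 0.13, and Hbq1b missed the threshold without DE replicate 1 or 2 (limma adjusted p between 0.061 and 0.16). Hbq1a had a value of -0.16 (limma adjusted p = 0.24), and duplicated globin genes share near-identical sequence, so reads cannot always be placed in one copy. The share of Hba cis interactions within 20 kb had a log2 ratio of -0.27 between DE and ESC. Its part in the falls of Hba-x and Hbq1b was not tested.

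Of 10 listed neighbours of Hba 0 rose and 3 fell, and 6 had all DE libraries below all ESC libraries, with a median of -0.23 against 0.12 over 572 gene starts, of which 2 rose and 5 fell (1.22% called). Il9r, the interleukin 9 receptor gene, had 935, 975 and 934 interactions in DE and 1260, 1476 and 1243 in ESC. It fell by 0.48 (limma adjusted p = 0.00047), Ubtd2 by 0.66 (limma adjusted p = 0.011) and Sh3pxd2b, for a podosome adaptor, by 0.46 (limma adjusted p = 0.047). Nprl3, whose introns hold the alpha-globin enhancers, and Mpg, for a DNA glycosylase, had values of -0.20 and -0.26 (limma adjusted p = 0.34 for each). Snrnp25, Rhbdf1, Stk10 and Fgf18 overlapped. Ranbp17, of the exportin family, was among the 2 starts that rose, by 1.40 (limma adjusted p = 0.0055). Without DE replicate 1 or 2 the calls of Il9r, Ubtd2, Sh3pxd2b and Ranbp17 were lost (limma adjusted p between 0.058 and 0.49 over all libraries whose removal ended a call). The last 3 were also lost without DE replicate 3, Ubtd2 without ESC replicate 1, Sh3pxd2b without ESC replicate 3 and Ranbp17 without ESC replicate 2 or 3.

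In bins, 10 of 3804 at 5 kb rose and 15 fell from Hba (0.657% called), and of 1000 at 100 kb 48 rose and 6 fell (5.4% called). The bin chr11:32000001-32100000, upstream of the alpha-globin genes, had 5327, 5430 and 5273 interactions in DE and 6692, 7031 and 6884 in ESC, and fell without overlap by 0.36 (limma adjusted p = 8.5e-08). The Ubtd2 bin at chr11:32300001-32400000 fell by 0.45 (limma adjusted p = 8.5e-08), each in 15 of 16 alternatives. Of 960 bins beyond 2 Mb, 29 rose and 0 fell by limma. The bin chr11:27000001-27100000 had 43.7, 53.7 and 59.6 in DE against 7.06, 18.5 and 4.88 in ESC and rose by 1.68 (limma adjusted p = 0.0026), in 15 of 16 alternatives.

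The split between rises and falls at Hba turned with the scaling. At 100 kb it was 26 and 8 with the total beyond 20 kb and 4 and 12 with TMM, at 5 kb 7 and 28 and 18 and 0, and TMM gave 5 and 0 for the gene starts. Without DE replicates 1, 2 and 3 the count was 21, 27 and 27 at 100 kb, 0, 0 and 1 at 5 kb, where it was 8 without ESC replicate 2, and 1, 1 and 3 for the gene starts.

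Hbb was read too thinly for single features. Of 221 bins of 5 kb 24 rose and 0 fell (10.9% called), and all 24 had no ESC read. DESeq2, edgeR and thinned reads called 0 of them. Of 112 gene starts 2 rose (1.79% called), the olfactory receptor genes Olfr551 with 22 reads in DE and 0 in ESC and Olfr654 with 10 and 0. A count of 0 in 1602 ESC reads allows up to 187 interactions per 100000, against 306 in DE at Olfr551 and 139 at Olfr654. DESeq2, edgeR and thinned reads called 0 gene starts. None of 8 listed neighbours tested was called, with a median of -0.32 against 0.75 over all starts. Starts entered on reads pooled over both cell types, and cis reads were 7195 in DE and 1602 in ESC. The part of this in the median over all starts was not tested. Olfr65 had 660, 767 and 830 interactions in DE and 1636, 1304 and 1381 in ESC, without overlap, a value of -0.93 (limma adjusted p = 0.14). The embryonic globin genes Hbb-bh1 and Hbb-y had values of -0.38 and -0.24 (limma adjusted p = 0.71 and 0.76).

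At 100 kb 2 of 32 bins rose and 2 fell from Hbb (12.5% called), and with TMM 1 and 2. The bin chr7:109700001-109800000, with olfactory receptor genes and Trim21, had 2101, 2064 and 2076 interactions in DE and 1091, 580 and 1381 in ESC and rose by 1.11 (limma adjusted p = 0.036). The bin of Hbb-y and Olfr65, chr7:111000001-111100000, had 5434, 5012 and 5535 in DE and 8545, 7826 and 6630 in ESC and fell by 0.52 (limma adjusted p = 0.024). Neither overlapped, and each passed in 7 of 16 alternatives. The count was 1 without DE replicate 1, 2 or 3, 2 without ESC replicate 1 and 0 without ESC replicate 2. Without ESC replicates 1 and 2 it was 42 and 52 at 5 kb, and without ESC replicates 1, 2 and 3 it was 11, 17 and 8 for the gene starts.

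From Slc25a37 contact fell beside the gene. Of 306 bins of 100 kb 1 rose and 2 fell (0.98% called). The bin with Slc25a37 and Entpd4 fell by 0.33 (limma adjusted p = 0.00047), in 15 of 16 alternatives. The bin chr14:69400001-69500000 had 949, 982 and 897 interactions in DE and 544, 441 and 555 in ESC and rose without overlap by 0.87 (limma adjusted p = 0.0061), a call lost without DE replicate 1 or 2 (limma adjusted p = 0.082 and 0.083). Of 729 bins of 5 kb 0 rose and 7 fell (0.96% called), and TMM and edgeR called 0.

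None of 99 gene starts passed at Slc25a37 (0.0%), with 12 at an unadjusted p under 0.05 and 0 by edgeR and by DESeq2, nor did any of 18 listed neighbours. Their median was -0.30 against 0.11 over all starts, and 4 had every DE library below ESC: Entpd4 (-0.39), Loxl2 (-0.67), Tnfrsf10b (-0.79) and Egr3 (-0.85). With TMM 1 bin of 100 kb rose and 6 fell, and with the total beyond 20 kb the count was 5. Without ESC replicate 3 it was 6. At 5 kb 2 passed without DE replicate 2 and 1 without DE replicate 3, ESC replicate 1 or ESC replicate 2, and for the gene starts 3 without DE replicate 3 and 2 without ESC replicate 3.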

How the data were processed

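NG Capture-C was analysed for 3 DE and 3 ESC libraries of the enhancer capture, grouped by their labels. The authors mapped reads to mm9 and deposited a signal per DpnII fragment, scaled in each column to 100000 interactions per viewpoint and library, with replicates kept apart. The submitters' processing notes name Bowtie and Trim Galore, with versions not given in the sources used here. Of 108 columns, 36 hold these libraries, and promoter-capture and erythrocyte columns served for 2 comparisons only. Of 11905 fragments, 11904 had both ends at GATC in NCBIM37. Each value came to a whole number of reads (tolerance 0.05), so depth is known, and reads without molecular identifiers can include PCR copies. Replicate pairs were compared by chi-square over bins. Of 36 pairs 25 differed with p under 0.05, chi-square over degrees of freedom was at least 0.340, lowest at Hbb, where depth was lowest, and no pair was counted as 1. The labels call the replicates biological without naming their cultures.

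Values were rescaled to 100000 cis interactions. Bins of 5 kb and 100 kb and windows of 5 kb to each side of protein-coding gene starts needed 10, 30 and 10 reads over the 6 libraries. They were tested with limma on log2(value + 10), which understates changes of low values, with Benjamini-Hochberg adjustment per viewpoint and kind and a threshold of 0.05. For shares and ratios, exact two-sided permutation tests over libraries were used. Named were the own genes, listed neighbours and, per viewpoint and kind, up to 4 features that rose and 4 that fell most, beyond 20 kb, past the threshold and without overlap. Other Eomes bins, and single regulators of the listed set, were chosen after their values were seen. The members, gene lists and tests were chosen with earlier results of these data known.

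Alternatives were pseudocounts of 2 and 50, no minimum, the total beyond 20 kb, TMM, DESeq2 and edgeR on the recovered reads, each library left out, the replicate number as a block, a fit of all 3 cell types, bins of 10 and 200 kb, windows of 2 kb and other distance limits. Added after the values were seen were thinned reads, sides of the viewpoint, the comparison of VPE with PSE_a and PSE_b, and sums without Foxl2 or Hbb. The fits were also run on simulated data, whose outcome is not reported here and on which no statement rests. DESeq2 1.42.0, edgeR 4.0.16 and limma 3.58.1 ran in R 4.3.3. Python 3.11.15 ran statsmodels 0.14.6, scipy 1.17.1, matplotlib 3.10.9, pandas 2.3.3 and numpy 2.4.6. In few sets of features did same-numbered DE and ESC replicates deviate together more than differently numbered ones in every pair, so the main fits have no block. These were the gene starts of PSE_b and the 100 kb bins of PSE_b and Hbb. RefSeq promoters of Slc25a37 and Tbx18 were not used here, and some features that the rule names are not reported here.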

Additional observations from a re-analysis of the deposited data

Results flagged for a closer look

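The share of cis interactions 100 to 500 kb away went in opposite directions between viewpoints, with every DE library above every ESC library at VPE and every DE library below at the others named. The difference of DE minus ESC was 2.88 points at VPE, -1.57 at PSE_a, -1.72 at Hba, -3.58 at Hbb and -1.19 at Slc25a37. On the log2 scale, DE minus ESC at VPE exceeded the mean of PSE_a and PSE_b by 0.22 (exact permutation test, p = 0.1). Taken singly, the change at VPE exceeded that at PSE_a by 0.25 and that at PSE_b by 0.19 (exact permutation test, p = 0.1 for each). The other differences between viewpoints in this share were not tested. As a share of interactions beyond 20 kb the VPE value was -1.04 points.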

How the results depend on the processing

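The Eomes start and the Foxl2 bin from VPE kept their direction and their side of the threshold in all alternatives run. The drop in the ratio of local over far contacts kept its direction at all 6 viewpoints. Every count of called features moved under at least 1 alternative, by over 1.5 times where the main count allowed a ratio. ESC libraries were 1.89 to 4.49 times shallower than DE, and the depth of Hbb allows no statement on single features. The causes of the changes below were not tested.

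With contacts 20 to 500 kb away set over those beyond 10 Mb, the ratio moved to -0.24 at VPE, -0.35 at PSE_b and -0.45 at Hba, and the gap between Eomes and erythroid viewpoints to 0.19. With the total beyond 20 kb, DE minus ESC in points was at VPE -3.76 (20 to 100 kb), -1.04 (100 to 500 kb, reversed), 0.109 (500 kb to 2 Mb), 3.23 (2 to 10 Mb) and 1.46 (over 10 Mb). At PSE_a it was -3.07, -2.93, -0.239 (reversed) and 2.76 in the first 4 of these classes, at PSE_b -3.12, -2.37 and -0.33 (reversed) in the first 3, at Hba -5.61 and -3.94 and, from 2 to 10 Mb, 3.54, and at Slc25a37 -4.62, -2.59 and -0.0453 (reversed). The log2 change at VPE minus the mean of those at PSE_a and PSE_b moved to 0.0753 at 100 to 500 kb.

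The Eomes start from PSE_a reversed to 0.046 with DESeq2 and passed the threshold at -0.38 in windows of 2 kb. From PSE_b it missed the threshold at -0.28 with a pseudocount of 2 and with 3 cell types, -0.0564 with TMM, -0.12 with DESeq2 and -0.0533 with edgeR. Golga4 from VPE reversed to 0.0246 with DESeq2. From Hba, Hba-x reversed to 0.0234 with TMM and 0.0048 with edgeR, and Hbq1b to 0.14 and 0.13.

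Counts over 1.5 times away from the main value are given for bins of 5 kb, bins of 100 kb and gene starts in turn. At VPE 5 kb bins (33) became 78 with a pseudocount of 2, 11 without a minimum, 12 with TMM, 18 with DESeq2, 2 with 3 cell types and 2 with thinned reads. The 100 kb bins (51) became 28 without a minimum, 23 with TMM, 22 with DESeq2, 5 with 3 cell types and 22 with thinned reads. The gene starts (8) became 16 with a pseudocount of 2, and 3 without a minimum, with 3 cell types and with thinned reads. At PSE_a 5 kb bins (1) became 4 without a minimum, 3 with TMM, 2 with edgeR and 0 with 3 cell types, 10 kb bins or thinned reads. The 100 kb bins (8) became 2 with a pseudocount of 2, 5 with TMM, 0 with 3 cell types and 5 with thinned reads, and the gene starts (0) became 3 in windows of 2 kb. At PSE_b 5 kb bins (0) became 4 without a minimum and 1 with edgeR or 10 kb bins. The 100 kb bins (16) became 9 with a pseudocount of 2, 6 without a minimum, 0 with 3 cell types and 3 with thinned reads, and the gene starts (1) became 0 with a pseudocount of 2, TMM or 3 cell types.

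At Hba 5 kb bins (25) became 15 with a pseudocount of 2, 5 with edgeR, 7 in 10 kb bins and 0 with 3 cell types or thinned reads. The 100 kb bins (54) became 35 with a pseudocount of 2, 34 with the total beyond 20 kb, 16 with TMM, 15 with DESeq2, 21 with edgeR, 0 with 3 cell types and 13 with thinned reads. The gene starts (7) became 4 without a minimum, 0 with DESeq2, edgeR or 3 cell types and 2 with thinned reads. At Hbb 5 kb bins (24) became 8 in 10 kb bins and 0 without a minimum, with DESeq2, edgeR or thinned reads. The 100 kb bins (4) became 1 without a minimum and 0 with DESeq2, 3 cell types or thinned reads. The gene starts (2) became 4 in windows of 2 kb and 0 without a minimum, with DESeq2, edgeR or thinned reads. At Slc25a37 5 kb bins (7) became 1 with a pseudocount of 2 or DESeq2, 2 in 10 kb bins and 0 with TMM, edgeR, 3 cell types or thinned reads. The 100 kb bins (3) became 5 with a pseudocount of 50 or the total beyond 20 kb, 7 with TMM or DESeq2, 12 with edgeR, 0 with 3 cell types and 1 with thinned reads. The gene starts (0) became 1 without a minimum and 5 in windows of 2 kb.

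With the replicate number as a block the 5 kb bins at VPE became 14, and the 100 kb bins became 0 at PSE_b, 2 at Hbb and 8 at Slc25a37. Same-numbered DE and ESC libraries deviated together with a correlation over 0.1 in every pair for the gene starts at PSE_b (0.111, 0.158 and 0.187). For the 100 kb bins at PSE_b the correlations were 0.0896, 0.157 and 0.11, each above those with other numbers. For the 100 kb bins at Hbb they were 0.116, 0.0763 and 0.218, also each above those with other numbers. In all other sets of features at least 1 pair was at or below 0.1, in the same libraries. The block moved no other count by over 1.5 times.

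With each library left out, counts for 5 kb bins, 100 kb bins and gene starts ran from 3 to 24, 18 to 77 and 2 to 11 at VPE, from 1 to 5, 0 to 7 and 0 to 1 at PSE_a, and from 0 to 5, 0 to 23 and 0 to 4 at PSE_b. They ran from 0 to 23, 21 to 75 and 1 to 10 at Hba, from 24 to 52, 0 to 4 and 2 to 17 at Hbb, and from 1 to 9, 2 to 6 and 0 to 3 at Slc25a37. The share from 500 kb to 2 Mb ran from -0.349 to 0.422 points at PSE_a and from -0.0586 to 0.719 at PSE_b, and the Eomes start from PSE_b from -0.31 to -0.23.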
